A study of Mus musculus with 18 samples.

Results

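ER-associated degradation (ERAD) carries misfolded proteins out of the endoplasmic reticulum (ER) for destruction by the proteasome, and 10 genes of its central machinery were followed here in MIN6 cells under ER stress. The genes were Herpud1, Selenos, Sel1l, Syvn1, Derl1, Derl2, Derl3, Edem1, Os9 and Ube2j1, chosen by name from the pathway, with earlier results of these data known. All 10 were among the 6929 genes that had at least 1 read in every library on at least 1 of their protein-coding RefSeq transcripts.

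MIN6 is an insulin-secreting mouse insulinoma line that serves as a model of the pancreatic β-cell, so no donor or animal enters the data. The cells were exposed to cyclopiazonic acid (CPA), an inhibitor of the ER calcium pump that empties the ER of calcium, at 200 µM for 1 h (CPA1, the acute phase) or 18 h (CPA18, the chronic phase), and control cells received the solvent DMSO for 18 h. Total mRNA fragments (mRNA-seq) and ribosome-protected fragments (Ribo-seq) were sequenced from each treatment in 3 experiments, giving 9 libraries per assay and 18 in all. The comparison asks which genes change in mRNA abundance, in ribosome footprints and in the ratio of footprints to mRNA, called ribosome occupancy, as acute stress becomes chronic. No vehicle control of 1 h was analysed here, so both CPA times are set against the same control libraries, and all libraries come from 1 cell line under 1 stressor.

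The mRNA-seq libraries held between 520960 reads (control, experiment 1) and 4755030 reads (CPA18, experiment 2) on the listed transcripts. The Ribo-seq libraries held 821147 to 1083297 reads in control, 392613 to 519309 in CPA1 and 168129 to 553842 in CPA18, so the shallowest footprint libraries were in the chronic group. For the control of experiment 2, one label of each library names the other assay, while the title, the molecule and the column headers of the tables follow the assay used here; the calls made without both libraries are given after the single genes. All 14 β-cell markers examined had reads in every library. Of the 19 markers of other cell types only Gcg, of α-cells, did, with the 3 α-cell markers summing to 21.7 to 236 RPKM, and Prss2, Ptf1a, Cftr and Ptprc had no reads. The summed level of the β-cell markers was lower in CPA18 (44598 to 136054 RPKM in mRNA-seq) than in control (159780 to 465542), and Ins1 and Ins2 together held 18.0–21.1% of Ribo-seq reads in control and 5.39–7.03% in CPA18. Library totals taken without the insulin genes still gave 9 members called after 18 h in each assay. With those totals 17.3% of all genes rose in mRNA-seq and 16.4% in Ribo-seq, against 27% and 25.6% with the full totals. RPKM is the read count scaled to transcript length and to the library's total.

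In ERAD, lumenal chaperones and lectins hand a misfolded protein to a membrane complex built on the ubiquitin ligase Syvn1 (HRD1) and its partner Sel1l. Derlins help to pass the protein through the membrane, ubiquitin-conjugating enzymes such as Ube2j1 supply the ubiquitin, and the ATPase VCP pulls the tagged protein into the cytosol. β-cells fold large amounts of proinsulin and rely on this route, and many ERAD genes are known targets of the ATF6, XBP1 and ATF4 branches of the unfolded protein response. Because the libraries are bulk samples, less RNA per cell and fewer cells carrying it cannot be told apart.

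The response elements known for these branches were searched in the 250 bases before each RefSeq start site (GRCm38.p6), on both strands. The promoter table held 9 of the 10 genes in 10 windows; Derl1 had no entry. The sequences of Herpud1, Syvn1, Derl3 and Ube2j1 are shown because, of the 9, they alone held one of the longer elements searched, and because they include both the genes with the highest log2 changes after 18 h (Herpud1 and Derl3) and the one that did not pass the test (Ube2j1). Capitals mark the elements, and each sequence reads 5′ to 3′ on the gene's own strand.
Herpud1, chr8:94386179-94386428, plus strand: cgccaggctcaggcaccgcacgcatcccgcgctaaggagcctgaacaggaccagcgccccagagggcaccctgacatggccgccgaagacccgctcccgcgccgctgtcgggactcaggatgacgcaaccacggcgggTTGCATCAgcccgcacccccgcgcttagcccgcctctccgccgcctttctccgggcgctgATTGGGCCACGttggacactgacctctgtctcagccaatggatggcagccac
Syvn1, chr19:6046326-6046575, plus strand: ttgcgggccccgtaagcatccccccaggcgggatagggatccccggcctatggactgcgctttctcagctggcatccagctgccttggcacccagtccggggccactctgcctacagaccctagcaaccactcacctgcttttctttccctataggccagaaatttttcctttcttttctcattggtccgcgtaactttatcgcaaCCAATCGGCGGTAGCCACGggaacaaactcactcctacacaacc
Derl3, chr10:75893148-75893397, plus strand: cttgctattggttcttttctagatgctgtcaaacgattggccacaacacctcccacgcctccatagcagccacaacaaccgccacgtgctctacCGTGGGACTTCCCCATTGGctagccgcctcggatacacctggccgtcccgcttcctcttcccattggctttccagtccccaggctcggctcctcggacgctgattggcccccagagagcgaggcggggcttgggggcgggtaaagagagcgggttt
Ube2j1, chr4:33031130-33031379, plus strand: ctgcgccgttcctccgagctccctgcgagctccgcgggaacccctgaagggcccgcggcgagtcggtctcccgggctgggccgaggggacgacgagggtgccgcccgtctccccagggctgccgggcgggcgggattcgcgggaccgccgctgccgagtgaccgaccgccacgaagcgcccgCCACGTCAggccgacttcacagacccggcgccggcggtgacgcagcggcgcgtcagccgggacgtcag

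The ER stress response element (ERSE, the letters CCAAT and CCACG at a fixed spacing) lay 44 to 26 bases before the start in Syvn1 and, in reverse orientation, 156 to 138 bases before it in Derl3. It was present in 0.113% of the 32851 windows of the same length. Herpud1 held the related ERSE-II element (ATTGG and CCACG with 1 base between them) at 52 to 42 bases before the start, found in 0.0304% of windows, and a reverse match to the ATF4-type element TGATGNAA at 112 to 105 bases, found in 3.45%. Ube2j1 held the unfolded protein response element TGACGTGG in reverse orientation at 68 to 61 bases before its start, found in 0.563% of windows. None of these letters occurred in the windows of Selenos, Sel1l, Derl2, Edem1 or Os9. The shorter letters CCACG, which end both ERSE forms and overlap the reverse UPRE, occurred on either strand in all 9 genes (9 of 10 windows) and in 28.3% of all windows. These are matches of letters only, and binding was not measured.

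In control cells the members spanned a wide range of levels. In mRNA-seq, Herpud1 (74.1 ± 15.9 RPKM, SD, n = 3), Derl1 (73.7 ± 14) and Selenos (71.7 ± 7.997) were the most abundant, and their ranges overlapped. Os9 followed at 41.2 ± 18.2 RPKM, then Syvn1 at 28.2 ± 3.04, Derl2 at 23.1 ± 6.09, Sel1l at 17.9 ± 11.7 and Ube2j1 at 15.8 ± 0.888, each overlapping the next. Edem1 (6.47 ± 2.35) and Derl3 (2.47 ± 0.909) lay below these with no overlap, and below the median gene at 9.42 RPKM. In Ribo-seq, Herpud1 stood alone at 91.6 ± 16.1 RPKM, Selenos, Os9, Syvn1, Derl1 and Sel1l formed an overlapping run from 56.0 to 42.8, and Ube2j1 (23.1), Derl2 (15.0), Edem1 (6.36) and Derl3 (2.04) followed without overlap. These Derl3 levels count 1 of its 4 transcripts. With all 4 summed its control means were 6.84 RPKM of mRNA and 6.44 of footprints, close to Edem1.

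After 18 h of CPA, 9 of the 10 genes rose in mRNA-seq and 9 of 10 rose in Ribo-seq, with Ube2j1 the exception in both, and none fell. The test was edgeR's quasi-likelihood test with the experiment as a block and Benjamini-Hochberg adjustment over 6929 genes at a threshold of 0.05. Of all genes tested, 27% rose and 7.89% fell in mRNA-seq, and 25.6% rose and 6.25% fell in Ribo-seq. The median log2 change of the members was 1.45 in mRNA-seq against 0.38 for all genes, and 1.45 against 0.42 in Ribo-seq. When each library was instead scaled by TMM factors the share of all genes that rose fell to 16.3% in mRNA-seq and 11.9% in Ribo-seq, and rises were 50.4% and 49.3% of calls instead of 77.4% and 80.4%; 9 members still rose in each assay, with a median log2 change of 1.11 and 1.07. Without the block, only Herpud1 and Derl3 of the members passed in mRNA-seq (1.43% of all genes rose), while the 9 in Ribo-seq all remained called. The share of all genes that rose in Ribo-seq without the block is not given, so these 9 cannot be set against it.

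**Figure D1:**
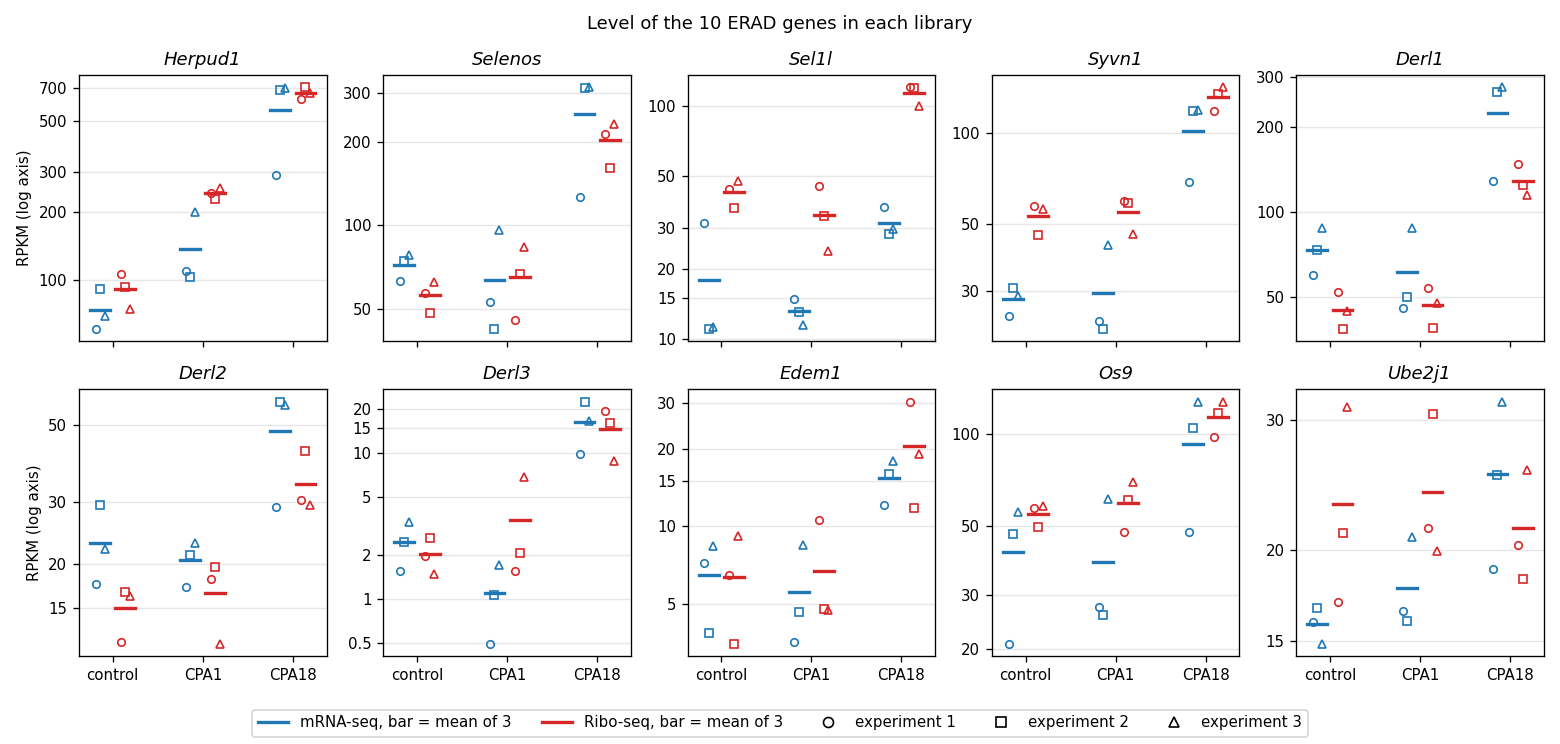
RPKM (log axis) of each of the 10 ERAD genes in control, CPA1 and CPA18 libraries of mRNA-seq (blue) and Ribo-seq (red). Symbols are experiments and bars are means of 3 libraries. In 9 panels the CPA18 bars stand above both other groups in each assay, Ube2j1 being the exception in Ribo-seq, and the Herpud1 footprints at CPA1 (228 to 255) already lie above every control library.

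In summed RPKM the 10 genes went from 355 ± 44.9 (SD, n = 3) in control to 388 ± 142 in CPA1 and 1366 ± 519.7 in CPA18 in mRNA-seq. In Ribo-seq the sums were 390.4 ± 29.3, 553 ± 14.1 and 1447 ± 21.1. Derl3 enters these sums through 1 of its 4 transcripts. Herpud1 alone made up 20.8% ± 2.97 of the control sum in mRNA-seq and 40.4% ± 2.34 of the CPA18 sum, and in Ribo-seq it went from 23.6% ± 4.33 of the control sum through 43.7% ± 1.498 at CPA1 to 46.0% ± 2.47 at CPA18. The CPA18 mRNA-seq library of experiment 1 summed to 767 RPKM against 1636 and 1695 in the others. That library was the lowest of the 3 for 9 of the 10 genes and had a TMM factor of 0.837 of its total against 1.43 and 1.45 in the others.

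Herpud1 and Selenos encode membrane proteins that bring components to the ligase complex; Herpud1 carries a ubiquitin-like domain, and the selenoprotein Selenos (also called VIMP) binds VCP and derlins. Herpud1 (gene 64209, chr8:94386429-94395371 in GRCm38.p6, as for all positions given) was measured in mRNA-seq at 60.9, 91.8 and 69.5 RPKM in the 3 control experiments, at 109.9, 104 and 198 in CPA1 and at 289, 686 and 703 in CPA18. Its footprints were at 107, 93.6 and 74.7 RPKM in control, 243, 228 and 255 in CPA1 and 625, 708 and 665 in CPA18. The 3 groups did not overlap in either assay, so every CPA1 library lay above every control and every CPA18 library above every CPA1. After 18 h the log2 change was 2.85 (SE 0.27, edgeR adjusted p = 5.01e-21) in mRNA-seq and 2.87 (SE 0.17, edgeR adjusted p = 5.92e-29) in Ribo-seq, or 7.22-fold and 7.33-fold. Among 6929 genes these increases ranked 29 and 32. Relative to the median gene the increases were 5.53-fold and 5.48-fold.

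Selenos (gene 109815, chr7:66079649-66089405) was at 62.8, 74.1 and 78.2 RPKM of mRNA in control, 52.9, 42.3 and 96.3 in CPA1 and 127, 313 and 316 in CPA18. Footprints were at 56.8, 48.4 and 62.7 in control, 45.6, 66.6 and 83.5 in CPA1 and 214, 162 and 232 in CPA18. Control and CPA1 overlapped, and CPA18 lay above both in each assay. The log2 change after 18 h was 1.77 (SE 0.27, edgeR adjusted p = 4.62e-09) in mRNA-seq, where the adjusted p without the block was 0.0716, and 1.84 (SE 0.23, edgeR adjusted p = 5.16e-11) in Ribo-seq.

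Syvn1 is the ubiquitin ligase of the complex and Sel1l the lumenal partner that stabilises it and docks substrates. Syvn1 (gene 74126, chr19:6046576-6053718, overlapping Mrpl49) was at 24.9, 30.8 and 29.02 RPKM of mRNA in control, 23.9, 22.5 and 42.6 in CPA1 and 68.7, 118 and 119 in CPA18. In Ribo-seq it was at 57.6, 46.2 and 56.1 in control, 59.7, 58.7 and 46.5 in CPA1 and 118, 135 and 142 in CPA18. CPA18 lay apart from the other groups in both assays. The log2 change after 18 h was 1.84 (SE 0.26, edgeR adjusted p = 5.32e-10; without the block 0.0508) in mRNA-seq and 1.32 (SE 0.19, edgeR adjusted p = 5.82e-09) in Ribo-seq.

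Sel1l (gene 20338, chr12:91806043-91849157) was at 31.4, 11.1 and 11.3 RPKM of mRNA in control, 14.9, 13.04 and 11.5 in CPA1 and 36.7, 28.1 and 29.5 in CPA18. The control library of experiment 1, the shallowest of the mRNA-seq libraries, stood above the other 2 controls and overlapped the CPA18 group. Footprints did not share this: they were at 44.0, 36.6 and 47.7 in control, 45.2, 33.6 and 23.9 in CPA1 and 120.5, 119 and 100.01 in CPA18, with CPA18 apart from both other groups. The log2 change in mRNA-seq was 0.97 (SE 0.26, edgeR adjusted p = 0.00178), and in Ribo-seq 1.39 (SE 0.18, edgeR adjusted p = 1.18e-10). The mRNA-seq call was lost without the control of experiment 2 (log2 change 0.76, edgeR adjusted p = 0.0969), without the control of experiment 3 (0.79, adjusted p = 0.0727) and without CPA18 of experiment 3 (0.84, adjusted p = 0.0617), and was 1.38 without the control of experiment 1. Over all alternatives the adjusted p of this change ran from 0.000301 to 0.356, the highest being without the block.

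The derlins are rhomboid-family membrane proteins placed where substrates leave the ER. Derl1 (gene 67819, chr15:57869502-57892418) was at 59.8, 73.5 and 87.8 RPKM of mRNA in control, 45.8, 50.2 and 88.0 in CPA1 and 129, 265 and 277 in CPA18. Its footprints went from 52.3, 38.7 and 44.9 in control, through 53.9, 38.9 and 48.0 in CPA1, to 148, 125 and 115 in CPA18. Only CPA18 stood apart, with log2 changes of 1.56 (SE 0.25, edgeR adjusted p = 3.29e-08; without the block 0.106) and 1.504 (SE 0.19, edgeR adjusted p = 1.45e-10).

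Derl2 (gene 116891, chr11:71007440-71019841, overlapping Mis12) was at 17.5, 29.6 and 22.1 RPKM of mRNA in control, 17.2, 21.3 and 23.1 in CPA1 and 29.2, 58.1 and 56.8 in CPA18. CPA18 of experiment 1 lay just under the control of experiment 2, so the groups touched in mRNA-seq. Footprints were at 12.0, 16.7 and 16.3 in control, 18.1, 19.6 and 11.9 in CPA1 and 30.4, 41.9 and 29.4 in CPA18, which did not overlap. The log2 changes after 18 h were 1.04 (SE 0.27, edgeR adjusted p = 0.000918; without the block 0.226) and 1.15 (SE 0.26, edgeR adjusted p = 0.000293). Derl2 also lost its mRNA-seq call without experiment 3 (log2 change 0.87, edgeR adjusted p = 0.135). The Ribo-seq call for Derl2 was lost with DESeq2 (adjusted p = 0.0607) and when only its most-read transcript was counted (edgeR adjusted p = 0.0683), with a range of 0.000153 to 0.0683 over all alternatives.

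Derl3 (gene 70377, chr10:75893398-75895941) was the rarest member in control when counted on its tested transcript alone. It was tested through the 1 of its 4 transcripts that had reads in every library, with 1, 5 and 10 reads in the control mRNA-seq libraries, 1, 2 and 4 in CPA1 and 15, 132 and 37 in CPA18. In RPKM the controls were at 1.56, 2.47 and 3.38, CPA1 at 0.496, 1.08 and 1.72 and CPA18 at 9.83, 22.6 and 16.7. Ribo-seq gave 2, 3 and 2 reads in control, 1, 1 and 4 in CPA1 and 4, 4 and 6 in CPA18, that is 1.98, 2.63 and 1.502 RPKM, then 1.57, 2.07 and 6.92, then 19.4, 16.025 and 8.82. CPA18 lay above both other groups in each assay. The log2 changes after 18 h were 2.70 (SE 0.48, edgeR adjusted p = 7.61e-07) in mRNA-seq and 2.57 (SE 0.56, edgeR adjusted p = 0.000438) in Ribo-seq. In pooled counts, CPA18 held 184 reads against 16 in control in mRNA-seq, and 14 against 7 in Ribo-seq. Scaled to the summed library totals of each group, the ratios were 6.75 (exact 95% interval 4.05 to 12.1) and 6.13 (2.31 to 17.9). These intervals cover counting error only.

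With all 4 Derl3 transcripts summed, for which the levels and ratios were chosen after the data were seen, mRNA-seq held 48 reads in control and 835 in CPA18, and Ribo-seq 24 and 62. The ratios, again scaled to the summed library totals, were then 10.2 (exact 95% interval 7.63 to 13.96) and 7.91 (4.87 to 13.3). In RPKM, mRNA rose from 6.84 ± 3.34 (SD, n = 3) to 70.5 ± 34.8 and footprints from 6.44 ± 2.11 to 57.3 ± 13.1. On these sums Derl3 was level with Edem1 in control, where Edem1 had 6.47 RPKM of mRNA and 6.36 of footprints. At CPA18 the Derl3 means lay above those of Edem1, Ube2j1 and Derl2, of which Derl2 was highest at 48.0 and 33.9. The fitted log2 changes of Derl3 were 3.33 (SE 0.38, edgeR adjusted p = 1.33e-15) and 3.03 (SE 0.40, edgeR adjusted p = 6.23e-12), so the single transcript gave the smaller change in both assays.

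Edem1 and Os9 act in the lumen on glycoproteins: Edem1 promotes mannose trimming of misfolded glycoproteins, and Os9 is a lectin that reads the trimmed glycan and delivers it to Sel1l. Edem1 (gene 192193, chr6:108824045-108859356) was at 7.21, 3.84 and 8.36 RPKM of mRNA in control, 3.54, 4.63 and 8.48 in CPA1 and 12.1, 15.9 and 17.9 in CPA18. Footprints were at 6.45, 3.49 and 9.14 in control, 10.5, 4.78 and 4.72 in CPA1 and 30.5, 11.8 and 19.1 in CPA18. CPA18 lay above both other groups in each assay, although its Ribo-seq libraries spread widely. The log2 changes were 1.34 (SE 0.31, edgeR adjusted p = 0.000206; without the block 0.169) and 1.60 (SE 0.29, edgeR adjusted p = 4.43e-06).

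Os9 (gene 216440, chr10:127094259-127121160) was at 20.8, 47.2 and 55.6 RPKM of mRNA in control, 27.3, 25.7 and 61.5 in CPA1 and 47.9, 104 and 126 in CPA18. The groups overlapped in mRNA-seq because experiment 1 was low in both, yet the log2 ratio of CPA18 to control was 1.203, 1.14 and 1.18 in experiments 1, 2 and 3. Footprints were at 57.2, 49.6 and 58.1 in control, 48.1, 60.9 and 69.7 in CPA1 and 97.2, 117 and 127 in CPA18, without overlap of CPA18 with the rest. The fitted log2 changes were 1.16 (SE 0.25, edgeR adjusted p = 6.82e-05) and 1.05 (SE 0.18, edgeR adjusted p = 1.85e-06). Without the block the mRNA-seq change of Os9 had an adjusted p of 0.246.

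Ube2j1, a tail-anchored ubiquitin-conjugating enzyme of the ER membrane, behaved differently from the other members in Ribo-seq. Its mRNA (gene 56228, chr4:33031380-33052367) was at 15.9, 16.6 and 14.9 RPKM in control, 16.5, 15.96 and 20.8 in CPA1 and 18.8, 25.3 and 31.8 in CPA18, so every CPA18 library lay above every control. Its log2 change of 0.68 (SE 0.29) did not pass the test (edgeR adjusted p = 0.0580). The value passed without CPA1 of experiment 2 (log2 change 0.69, edgeR adjusted p = 0.0206) and without CPA18 of experiment 1 (0.82, adjusted p = 0.0307). It also passed with Lars2 left out of the totals (0.70, edgeR adjusted p = 0.00921), with the most-read transcript alone (0.80, adjusted p = 0.0327) and without experiment 1 (0.85, adjusted p = 0.0457), in a range of 0.00921 to 0.511 over all alternatives, so its place outside the called members in mRNA-seq depends on these choices. Footprints were at 16.96, 21.1 and 31.2 RPKM in control, 21.4, 30.6 and 19.9 in CPA1 and 20.3, 18.2 and 25.7 in CPA18, and all 3 groups overlapped. The log2 change in Ribo-seq was -0.09 (SE 0.28, edgeR adjusted p = 0.826), where the median gene was at 0.42.

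**Figure D2:**
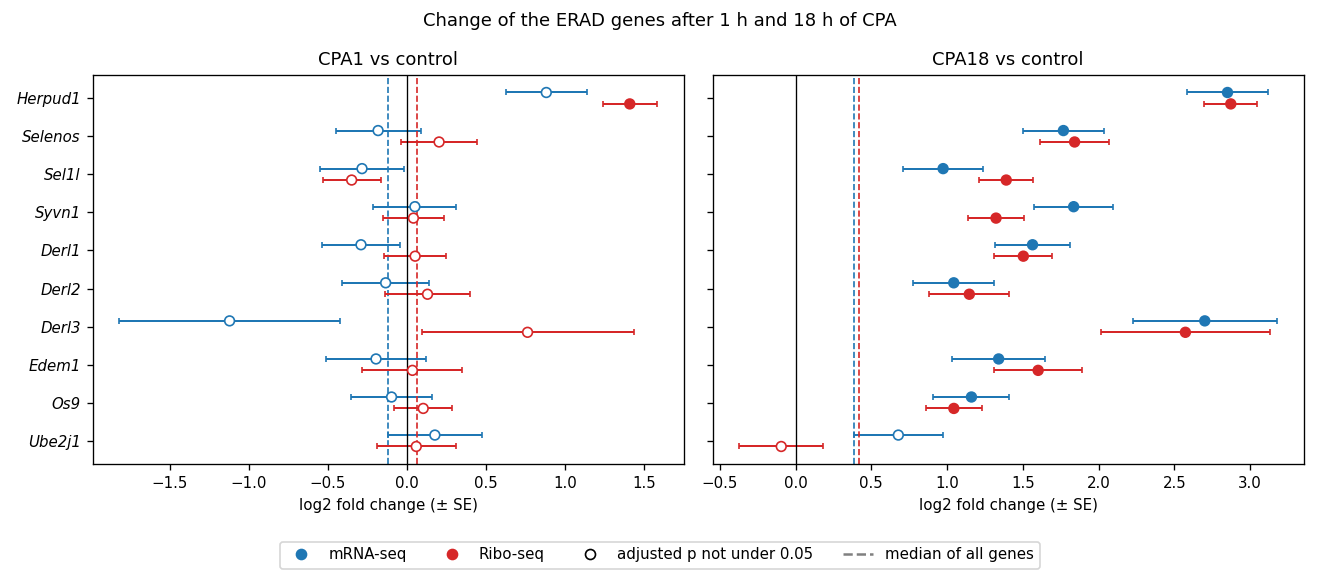
Log2 fold change with its SE for each ERAD gene in mRNA-seq (blue) and Ribo-seq (red), CPA1 against control on the left and CPA18 against control on the right. Filled points passed an adjusted p of 0.05, and dashed lines mark the median of all 6929 genes. Herpud1 footprints are the only filled point at CPA1, and every gene but Ube2j1 is filled in both assays at CPA18.

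Counted by overlap of the libraries, 7 members in mRNA-seq and 9 in Ribo-seq had every CPA18 library above every control library, where 14.8% and 31% of all genes did. The members that overlapped were Sel1l, Derl2 and Os9 in mRNA-seq and Ube2j1 in Ribo-seq. Leaving out the control of experiment 2, whose labels disagree, left 8 members called in mRNA-seq, with Sel1l lost, and 9 in Ribo-seq. The log2 changes of the members after 18 h then ran from 0.76 (Sel1l) to 3.02 (Herpud1) in mRNA-seq and from -0.21 (Ube2j1) to 2.89 (Herpud1) in Ribo-seq. At 1 h, Herpud1 footprints then changed by 1.43 (edgeR adjusted p = 1.105e-06) and Herpud1 mRNA by 1.03 (edgeR adjusted p = 0.871), and no member passed in occupancy in any comparison.

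After 1 h of CPA, Herpud1 was the only member whose footprints rose. Its log2 change in Ribo-seq was 1.41 (SE 0.17, edgeR adjusted p = 1.18e-10), or 2.66-fold, and 1 member of 10 compares with 3.75% of all genes that rose. Herpud1 mRNA changed by 0.88 on the log2 scale (SE 0.26), or 1.84-fold, and missed the threshold with an edgeR adjusted p of 0.0636. The per-experiment log2 ratios of Herpud1 mRNA were 0.85, 0.17 and 1.51, and those of its footprints 1.19, 1.29 and 1.77. The mRNA change passed without CPA1 of experiment 2 (log2 change 1.25, edgeR adjusted p = 0.00736), without CPA18 of experiment 2 (0.85, adjusted p = 0.0314), with TMM factors (1.03, adjusted p = 0.0118) and with DESeq2 (0.97, adjusted p = 0.00191), in a range of 0.00191 to 0.999 over all alternatives.

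No member passed in mRNA-seq at 1 h with edgeR, where 0.505% of all genes rose; 1 member, Herpud1, had an unadjusted p under 0.05, DESeq2 called 1 and limma called 0. The other 9 members ranged from -1.12 (Derl3) to 0.18 (Ube2j1) in mRNA-seq, and in Ribo-seq from -0.35 (Sel1l) to 0.76 (Derl3), all with adjusted p of 0.300 or above. The SEs of these 9 changes ran from 0.18 to 0.70. Herpud1 mRNA at 1 h, at over 3 times its SE, did not pass, so changes of several SEs could go undetected in mRNA-seq.

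From the acute to the chronic phase, 9 members rose in mRNA-seq, where 33.8% of all genes did, and 9 rose in Ribo-seq, where 18.2% did. Ube2j1 was again the exception, with log2 changes of 0.50 (SE 0.29, edgeR adjusted p = 0.149) and -0.15 (SE 0.29, edgeR adjusted p = 0.758). Sel1l, which depended on single libraries against control, rose from CPA1 to CPA18 by 1.26 on the log2 scale (SE 0.26, edgeR adjusted p = 3.17e-05) in mRNA-seq and by 1.74 (SE 0.19, edgeR adjusted p = 1.34e-13) in Ribo-seq, and no single omitted library ended either call (without the block the mRNA-seq adjusted p was 0.164). Herpud1 rose by a further 1.97 (SE 0.25) in mRNA-seq and 1.46 (SE 0.17) in Ribo-seq. Without the block the mRNA-seq calls were 2, Selenos and Derl3, against 1.57% of all genes. In Ribo-seq the Derl2 call (1.02, SE 0.28, edgeR adjusted p = 0.00390) was lost without CPA1 of experiment 3 (0.80, adjusted p = 0.0672), and the Derl3 call (1.81, SE 0.59, edgeR adjusted p = 0.0320) was lost without any 1 of 4 libraries: CPA1 of experiments 1 and 2 and CPA18 of experiments 1 and 2 (adjusted p = 0.224, 0.170, 0.203 and 0.118). With TMM factors 7 members instead of 9 were called in Ribo-seq, Derl2 (edgeR adjusted p = 0.0660) and Derl3 (adjusted p = 0.1103) being lost. The share of all genes with TMM factors is not given for this comparison, so the 7 cannot be set against the 18.2% of the main fit. Derl3 was also lost with median centring (adjusted p = 0.0989) and without the insulin genes in the totals (0.0709), and Derl2 with DESeq2 (adjusted p = 0.126).

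Ribosome occupancy, the Ribo-seq RPKM of a gene divided by its mRNA-seq RPKM in the same experiment, did not pass the test for any member in any comparison. In control cells it was highest for Sel1l, at 1.40, 3.31 and 4.24 in the 3 experiments (2.98 ± 1.45, SD, n = 3), and lowest for Derl1, at 0.874, 0.526 and 0.511 (0.637 ± 0.205). The low value of Sel1l in experiment 1 goes with the high mRNA of that control library. Syvn1 was at 1.91 ± 0.409, Os9 at 1.62 ± 0.984, Ube2j1 at 1.48 ± 0.549 and Herpud1 at 1.28 ± 0.407, against a median of 1.41 over all genes, and Edem1, Derl3, Selenos and Derl2 lay between 0.965 and 0.662. RPKM uses the full transcript length in both assays, while the paper reports footprints on Ins2 as enriched in its coding part. Ratios of different genes can therefore also differ by how much of each transcript is coding, which was not taken into account.

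**Figure D3:**
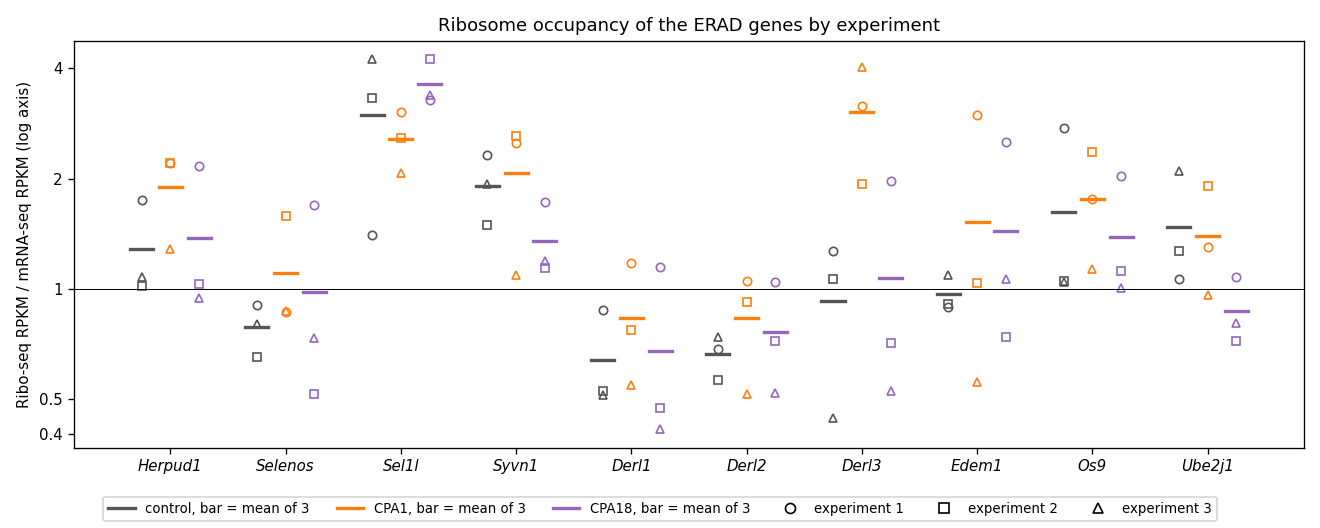
Ribosome occupancy, Ribo-seq RPKM over mRNA-seq RPKM (log axis), of each ERAD gene in each experiment under control (grey), CPA1 (orange) and CPA18 (purple). Bars are means of 3 experiments. Sel1l lies highest in control at a mean of 2.98, and Ube2j1 has its lowest mean, 0.868, at CPA18.

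The change in occupancy was tested as the Ribo-seq change minus the mRNA-seq change in a joint edgeR fit over all 18 libraries. Of all genes, 0.0866% passed in either direction at CPA1 against control, 0.476% at CPA18 against control and 0.0722% from CPA1 to CPA18, and 0 members passed in each, with 0, 0 and 1 member at an unadjusted p under 0.05. DESeq2 called 0 of those it gave an adjusted p, which it did not give for Derl3 in any of the 3 comparisons, for Edem1 at CPA1 against control, or for Derl2, Edem1, Selenos, Syvn1 and Ube2j1 from CPA1 to CPA18. Herpud1 occupancy was at 1.75, 1.02 and 1.07 in control, 2.21, 2.20 and 1.28 in CPA1 and 2.16, 1.03 and 0.945 in CPA18. Its log2 change was 0.52 (SE 0.33) after 1 h and 0.02 (SE 0.32) after 18 h.

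Ube2j1 occupancy was at 1.07, 1.27 and 2.10 in control, 1.30, 1.91 and 0.960 in CPA1 and 1.08, 0.720 and 0.806 in CPA18. Its log2 change after 18 h was -0.78 (SE 0.39), the lowest of the members, with an edgeR adjusted p of 0.549. For the other members the log2 change after 18 h lay between -0.52 (Syvn1, SE 0.32) and 0.41 (Sel1l, SE 0.33). Derl3 had the widest error, -0.04 with an SE of 1.21. The member with an unadjusted p under 0.05 was Derl3 from CPA1 to CPA18 (-1.93, SE 0.92), which rests on 6 Ribo-seq reads and 7 mRNA-seq reads in all CPA1 libraries.

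The rest of the pathway was described with a list of 93 further ERAD genes in 6 role groups, of which 78 were tested. After 18 h of CPA, 33 rose and 4 fell in mRNA-seq, and 30 rose and 2 fell in Ribo-seq; with TMM factors the counts were 25 and 6, and 15 and 7. The rises were 42.3% and 38.5% of the tested list, where 27% and 25.6% of all genes rose, and with TMM factors 32.1% and 19.2%, where 16.3% and 11.9% did. The list had a median log2 change of 0.61 in mRNA-seq, against 0.38 for all genes, and of 0.55 in Ribo-seq, against 0.42. The mRNA-seq count of rises was 1 without the block, where 1.43% of all genes rose, and 19 without the control of experiment 3. The count of falls was 2 without the control of experiment 1, the control of experiment 3 or CPA18 of experiment 1. Without the control of experiment 2, 25 rose and 5 fell in mRNA-seq, where 15.1% of all genes rose. The Ribo-seq count of rises was 17 without that control, where 17.8% of all genes rose, and 19 without CPA18 of experiment 3, and 1 gene fell without CPA18 of experiment 1. For the other omitted libraries the share of all genes is not given, so those counts cannot be set against it.

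The group listed as lumenal chaperones and reductases that deliver substrates also holds the oxidases Ero1a and Ero1b. In this group 9 of 13 rose and 1 fell in each assay, the highest share of rises of the 6 groups. That share was 69.2% in each assay, beside 27% and 25.6% of all genes. Without the block 0 rose in mRNA-seq, where 1.43% of all genes did, and 8 in Ribo-seq, where the share of all genes is not given. Dnajb9, a J-domain co-chaperone of BiP, rose most in mRNA-seq, from 20.5 ± 17.9 RPKM (SD, n = 3) to 59.1 ± 9.56, a log2 change of 1.85 (SE 0.31, edgeR adjusted p = 2.15e-07; without the block 0.125), and by 1.12 (SE 0.23) in Ribo-seq. Ero1b, an oxidase that serves disulfide formation in β-cells, fell by 1.53 on the log2 scale in mRNA-seq (SE 0.25, edgeR adjusted p = 4.84e-08; without the block 0.0988), from 138 ± 55.5 to 45.8 ± 7.88 RPKM, and by 1.14 (SE 0.19) in Ribo-seq.

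Of 20 other ER membrane ligases and cofactors, 10 rose in mRNA-seq and 11 in Ribo-seq, and none fell. These shares were 50% and 55%, beside 27% and 25.6% of all genes. Without the block 1 rose in mRNA-seq, where 1.43% of all genes did, and 11 in Ribo-seq, where the share of all genes is not given. Erlin1, part of a membrane complex that targets the IP3 receptor for ERAD, rose most, with log2 changes of 3.24 (SE 0.53, edgeR adjusted p = 8.19e-08) and 3.19 (SE 0.46, edgeR adjusted p = 8.17e-09), from 0.538 ± 0.0390 to 5.55 ± 1.23 RPKM of mRNA (SD, n = 3). Its footprints went from 1.25 ± 0.146 to 13.3 ± 8.47 RPKM. It started from a low level, as the median gene in control was at 9.42 RPKM of mRNA and 11.4 of footprints.

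The ubiquitin-conjugating enzymes held 7 tested genes besides Ube2j1; 2 rose in mRNA-seq and 1 in Ribo-seq, shares of 28.6% and 14.3% beside the 27% and 25.6% of all genes. Ube2g2, which supplies ubiquitin for ERAD, rose from 48.9 ± 9.46 to 188 ± 84.8 RPKM of mRNA (SD, n = 3), a log2 change of 1.88 (SE 0.26, edgeR adjusted p = 2.60e-10; without the block 0.0538). Its footprints rose by 2.95 (SE 0.28, edgeR adjusted p = 4.44e-16) and, at 1 h, by 1.09 (SE 0.31, edgeR adjusted p = 0.0158; without the block 0.0870).

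In the remaining 3 groups the share that rose is to be read against the same 27% and 25.6% of all genes: it was 46.7% and 26.7% for VCP and its cofactors, 22.2% and 33.3% for the mannose-trimming group and 21.4% and 14.3% for the deglycosylation group. Of 15 genes for the VCP ATPase and its cofactors 7 rose in mRNA-seq and 4 in Ribo-seq; Ufd1, a VCP cofactor, rose most in mRNA-seq (1.66, SE 0.41, edgeR adjusted p = 0.000594) and had a Ribo-seq change of 0.72 (SE 0.44, edgeR adjusted p = 0.205). Of 9 mannose-trimming enzymes and lectins, 2 rose and 2 fell in mRNA-seq and 3 rose in Ribo-seq. There, the lectin chaperone Calr rose by 1.53 (SE 0.27, edgeR adjusted p = 4.92e-07) in mRNA-seq, and the mannosidase Man1a2 fell by 1.19 (SE 0.36, edgeR adjusted p = 0.00526) but had a footprint change of 0.16 (SE 0.42). Of 14 genes for deglycosylation, deubiquitination and shuttling, 3 rose and 1 fell in mRNA-seq and 2 rose and 1 fell in Ribo-seq. Get4, of the membrane-protein shuttling machinery, rose by 1.22 (SE 0.26, edgeR adjusted p = 4.35e-05), and the deubiquitinase Yod1 fell by 1.68 (SE 0.50, edgeR adjusted p = 0.00439), with footprint changes of 0.56 (SE 0.26) and 0.46 (SE 0.52) that did not pass. Without the block none of these 5 mRNA-seq changes passed, at adjusted p of 0.125, 0.152, 0.194, 0.222 and 0.220.

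**Figure D4:**
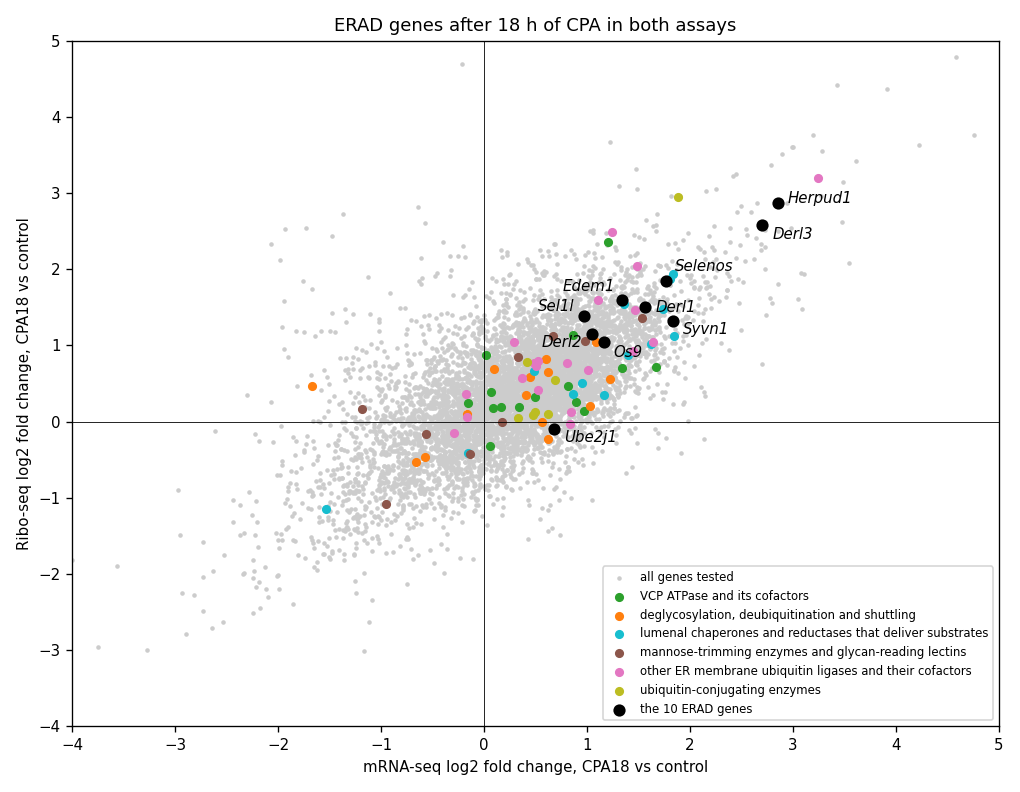
Log2 fold change at CPA18 against control in mRNA-seq (horizontal) and Ribo-seq (vertical) for all genes tested (grey), the wider ERAD list coloured by role and the 10 ERAD genes in black; 5 genes lie outside the axes. Both axes share the same control and CPA18 experiments, 9 of the 10 black points lie at 0.97 or above on both, and Ube2j1 lies near 0 on the vertical axis.

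To see which other genes had the same course, each gene's log2(RPM + 0.5) was centred within experiment and assay and correlated with the mean of the 10 members over the 18 libraries. Among 4433 genes with a mean of at least 5 RPKM in both assays, the most alike were Erg28 (r = 0.991), the amino acid transporter subunit Slc7a5 (0.991), Slc35e1 (0.989), Ifi27 (0.987) and Slc3a2 (0.986), the heavy chain that pairs with Slc7a5. These r values describe 18 libraries that share 3 treatments and 3 experiments. After 18 h their log2 changes ran from 1.16 (Ifi27) to 2.69 (Slc3a2) in mRNA-seq and from 0.96 (Ifi27) to 2.33 (Slc3a2) in Ribo-seq. The members' own r with their mean ran from 0.463 (Ube2j1) and 0.896 (Sel1l) to 0.993 (Derl1).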

How the data were processed

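The authors aligned mRNA-seq and Ribo-seq reads of MIN6 cells and deposited, for 30741 RefSeq transcripts, counts and RPKM (counts scaled to transcript length and library total) in 3 tables, 1 per experiment; the submitters' processing notes name Bowtie2 and GRCm38. From the deposited counts, NM_ transcripts that none of the 18 libraries lacked were added up per RefSeq symbol, giving 6929 genes. The 10 members and the wider list were chosen with earlier results of these data known.

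Counts were tested with edgeR 4.0.16 (R 4.3.3, quasi-likelihood test, library size equal to total counts, Benjamini-Hochberg adjustment, threshold 0.05), in 1 fit per assay and 1 joint fit for ribosome occupancy, each with the experiment as a block. The labels call each replicate number a batch. Deviations from the group means correlated between same-numbered libraries at a mean r of 0.545 (0.109 to 0.736, 9 pairs) in mRNA-seq and 0.138 (0.0794 to 0.188) in Ribo-seq. P-values measure the spread between these samples of 1 cell line, in an estimate that draws on all genes tested. SEs and p-values therefore follow a gene's own spread only in part. In mRNA-seq after 18 h the SE was 0.25 for Os9 and 0.26 for Sel1l, while their per-experiment log2 ratios had SDs of 0.031 and 0.66. Intervals on counts cover counting error only.

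All members were named; from each role group of the wider list, the genes with the largest rise and the largest fall in mRNA-seq at CPA18 against control among those called; and the 5 genes most like the mean of the members. Alternatives used limma 3.58.1 and DESeq2 1.42.0, other scalings, read filters, transcript choices and omitted libraries. The edgeR script was tested on simulated data.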

Additional observations from a re-analysis of the deposited data

Results flagged for a closer look

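The change after 18 h of CPA was larger than the change after 1 h, by the test of their difference (CPA18 against CPA1, edgeR's quasi-likelihood test), for every member but Ube2j1 in both assays. In mRNA-seq the difference on the log2 scale was 1.97 for Herpud1, 1.95 for Selenos, 1.26 for Sel1l, 1.78 for Syvn1, 1.85 for Derl1, 1.18 for Derl2, 3.82 for Derl3, 1.54 for Edem1 and 1.26 for Os9. Without the replicate block only those of Selenos and Derl3 passed. In Ribo-seq it was 1.46 for Herpud1, 1.64 for Selenos, 1.74 for Sel1l, 1.28 for Syvn1, 1.45 for Derl1, 1.02 for Derl2, 1.81 for Derl3, 1.57 for Edem1 and 0.94 for Os9. The Ribo-seq differences of Derl2 and Derl3 were lost with TMM factors and with some libraries left out, and that of Derl3 was 2.58 with all its transcripts summed.

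Derl3 also had reads on 3 transcripts that were left out of the tested sum because some libraries had none. At CPA18 these transcripts held 83.5 RPM (reads scaled to the library total) in mRNA-seq, against 6.997 in control, and 51.9 RPM in Ribo-seq, against 5.998 in control.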

How the results depend on the processing

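Over 23 alternatives, 8 of them (leaving out single libraries) and the sum of all Derl3 transcripts chosen after seeing the data, no called result of a member reversed; of 845 checks of called results, 34 lost the call. Herpud1 at CPA1 and Ube2j1 at CPA18 against control, both in mRNA-seq and not called, gained a call in 13 checks. Without the replicate block, members called in mRNA-seq went from 9 to 2 at CPA18 against control and from 9 to 2 against CPA1. At CPA18 against control the wider list went from 33 up and 4 down to 1 and 0 in mRNA-seq, where 1.43% of all genes rose. In Ribo-seq 1 of the list fell instead of 2. The cause was not tested. At CPA1 in mRNA-seq 1 member was called instead of 0 with TMM factors, median centring, Lars2 left out of the totals, DESeq2 or a mean of at least 20 reads. Rises in the wider list were 20 in mRNA-seq and 13 in Ribo-seq with DESeq2. The share of all genes with DESeq2 is not given, so those counts cannot be set against it. In Ribo-seq 15 of the list rose with TMM factors, where 11.9% of all genes did, and 15 with median centring, where 11.2% did. Library totals free of insulin reads gave 18 rises in Ribo-seq, beside 16.4% of all genes. As shares of the tested list these Ribo-seq counts were 19.2%, 19.2% and 23.1%, in that order. Falls in Ribo-seq were 7 with TMM factors and 7 with median centring, where 848 and 867 of 6929 genes fell. With replicates or single libraries left out, members called in mRNA-seq ranged from 0 to 1 at CPA1 and 7 to 10 at CPA18 against control. The list then ranged from 13 to 41 up and 2 to 5 down in mRNA-seq. In Ribo-seq the list ranged from 17 to 30 up and 1 to 3 down. Shares of all genes are not given beside these ranges. In mRNA-seq that share was 27% up in the main fit and 15.1% without the control of experiment 2. DESeq2 gave no adjusted p for 13 member results, 7 of them of Derl3. Depth limits Derl3 most, at 1 to 6 Ribo-seq reads per library on its tested transcript.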
